A study of Mus musculus with 6 samples.

Results

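Neuropeptides, prostaglandins and leukotrienes act on group 2 innate lymphoid cells (ILC2s) through receptors, of which 9 genes for receptors or receptor subunits are described here. They are Nmur1, Vipr2, Ramp1, Calcrl, Ptgdr2, Ptgir, Ptger4, Cysltr1 and Ltb4r1, picked by symbol as receptors of these mediators. All 9 were found, each as a single entry, among the 55394 genes of the study. The libraries were SMART-seq libraries, a full-length method for small amounts of RNA, each from 1000 ILC2s sorted from lungs of wild type C57BL/6 neonates. The Abx group held 3 libraries, from offspring whose dams drank a broad-spectrum antibiotic cocktail (ampicillin, metronidazole, neomycin and vancomycin) from gestation day 10 to day 14, and the Con group held 3 libraries from offspring of control dams. The sort kept live CD45+Lin-CD90.2+CD25+ cells, and the lineage cocktail of the methods holds antibodies against Ter119 of erythroid cells, Gr1 and CD11b of neutrophils and other myeloid cells, B220 of B cells and CD3e of T cells, among others. The labels do not give the age of the pups in days, how many pups went into a library or their sex, and whether the 3 libraries of a group came from separate litters is not stated, so the p-values measure the spread between these libraries.

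ILC2s are tissue-resident lymphocytes without antigen receptors that release type 2 cytokines, and most of the signals that start or stop them come from neighbouring cells. Neuromedin U, released by cholinergic neurons, activates them through Nmur1, while calcitonin gene-related peptide (CGRP) acts through a receptor made of Calcrl and its partner Ramp1 and raises cyclic AMP. Among lipid mediators, prostaglandin D and the leukotrienes are known to activate ILC2s, whereas prostaglandins I and E restrain them through receptors that couple to cyclic AMP. Transcript levels such as those below are not a measure of receptor on the cell surface.

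The promoter windows of 5 of the 9 genes are shown, each for a reason given next. Vipr2, with the highest log2 difference of the receptors (0.74), is not among them. Ltb4r1 and Ramp1 had the highest levels, Nmur1 is the neuromedin U receptor and came next, Calcrl was the gene with separated groups, and Ptgdr2 was listed at 0 throughout. Each sequence is the 250 bases before a RefSeq start of the gene in build GRCm38.p6, written in the direction of transcription. The windows are at chr14:55765712-55765961 on the plus strand for Ltb4r1, chr1:91179572-91179821 on the plus strand for Ramp1, chr1:86388142-86388391 on the minus strand for Nmur1, chr2:84425267-84425516 on the minus strand for Calcrl and chr19:10936910-10937159 on the plus strand for Ptgdr2. Of the 2 Nmur1 windows, the more downstream is shown. Capitals mark matches to 4 motifs on either strand, GATAA (the core bound by GATA factors), TGACG (the core of the cyclic AMP response element), TATAAA (the TATA box) and GGGCGG (the GC box).
Ltb4r1: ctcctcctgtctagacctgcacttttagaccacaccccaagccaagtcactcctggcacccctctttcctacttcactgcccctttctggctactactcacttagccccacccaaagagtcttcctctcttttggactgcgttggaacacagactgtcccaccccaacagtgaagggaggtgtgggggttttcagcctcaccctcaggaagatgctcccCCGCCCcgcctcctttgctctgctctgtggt
Ramp1: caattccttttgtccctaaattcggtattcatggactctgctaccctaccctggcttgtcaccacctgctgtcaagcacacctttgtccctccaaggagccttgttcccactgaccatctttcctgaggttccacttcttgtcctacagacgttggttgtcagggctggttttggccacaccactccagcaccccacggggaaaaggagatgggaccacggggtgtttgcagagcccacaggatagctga
Nmur1: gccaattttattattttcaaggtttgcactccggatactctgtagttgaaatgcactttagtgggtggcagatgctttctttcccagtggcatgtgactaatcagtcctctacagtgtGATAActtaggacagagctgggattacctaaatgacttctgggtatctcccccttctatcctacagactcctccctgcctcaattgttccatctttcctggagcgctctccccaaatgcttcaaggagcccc
Calcrl: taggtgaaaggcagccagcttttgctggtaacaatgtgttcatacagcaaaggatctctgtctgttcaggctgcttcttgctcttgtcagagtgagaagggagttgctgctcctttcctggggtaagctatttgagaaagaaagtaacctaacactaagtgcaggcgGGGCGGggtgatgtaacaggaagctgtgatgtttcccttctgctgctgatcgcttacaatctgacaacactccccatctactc
Ptgdr2: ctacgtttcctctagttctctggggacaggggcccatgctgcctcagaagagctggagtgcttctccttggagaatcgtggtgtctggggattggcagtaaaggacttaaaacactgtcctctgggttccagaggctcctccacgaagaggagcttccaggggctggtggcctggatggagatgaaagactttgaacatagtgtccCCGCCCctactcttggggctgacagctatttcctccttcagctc
In all, 9 windows of 8 of the genes were searched, Nmur1 having 2 of them. GATAA was found in 1 window, the Nmur1 window shown, against 22.6% of all 32851 promoter windows of the same length. The other Nmur1 window, at chr1:86389362-86389611 and not shown, held none of the 4 motifs. TGACG (17.8% of all windows) and TATAAA (12.4%) were found in 0 of the 9 windows. GGGCGG was found in the windows of Ltb4r1, Calcrl, Ptgdr2, Vipr2, Ptgir and Ptger4, where 32.7% of all windows hold it, and Ptger4 had 4 matches, of which 2 overlap. The matches describe these letters only. Of the genes shown, Ltb4r1 at the top of the levels and Ptgdr2 at the bottom each had 1 GC box and no other match.

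Values are FPKM, fragments mapped to a gene scaled by its exon length and by the size of the library, so levels of different genes can be compared per length. Total FPKM was 420941 to 449523 in Con and 431613 to 489262 in Abx, and 8574 to 9203 genes reached 1 FPKM in a Con library against 7074 to 8193 in an Abx library. The number of reads is unknown. A value of 0 need not mean absence, since 458 of the 4316 tested genes that reached 20 FPKM in a library (10.6%) were listed at 0 in another, among them Polr2h, a subunit of RNA polymerase, at 71.3 FPKM in Abx library 2 and 0 in Abx library 3. Of 12 ILC2 markers, 11 reached 1 FPKM in all 6 libraries, the exception being Il1rl1 for the IL-33 receptor, at 0.06 to 2.94 FPKM in Con and 0.01 to 0.03 FPKM in Abx. Summed B cell markers were 609 to 803 FPKM in Con and 1950 to 2360 FPKM in Abx (8 of the 10 at 1 FPKM or more in every Con library), and summed T cell markers were 343 to 375 and 488 to 589 FPKM. Of 9 B cell markers tested, 6 were higher and 1 lower in Abx without overlap, and of 7 T cell markers 4 and 1. The lower ones were Cd79b (69.46 to 116.78 FPKM in Con, 31.01 to 57.43 FPKM in Abx) and Zap70 (80.96 to 95.97 and 52.28 to 67.98 FPKM). Xist was at 3.78 to 5.09 FPKM in Con and listed at 0 in Abx, and the Y-linked Eif2s3y at 0.03 to 0.86 and 11.9 to 24.4 FPKM, so that pup sex and antibiotic exposure cannot be told apart for any group difference below. In Pearson correlation across genes, which are not independent replicates, Abx libraries 1 and 3 stood apart from the rest, with r of 0.655 to 0.723 to every other library.

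Most of these receptors were detected in the libraries of sorted neonatal lung ILC2s, and their levels spanned a wide range. With detection set at 1 FPKM in all 3 libraries of a group, 7 of the 9 genes were detected in Con and 6 in Abx. Ltb4r1, the high-affinity receptor of leukotriene B4, was the highest, ranking 119th to 393rd among all genes of a library. Ramp1, the accessory subunit that turns Calcrl into a CGRP receptor, ranked 236th to 404th and was below Ltb4r1 in 6 of 6 libraries, although the ranges of both genes over the libraries overlapped. Nmur1 came next, above 84.95% or more of the genes at 1 FPKM in each library, and its lowest library (51.5 FPKM) was above the highest of Cysltr1 (49.8 FPKM). Cysltr1, Ptgir and Ptger4 formed a middle group whose ranges overlapped, with Ptgir above Ptger4 in only 3 of 6 libraries. Vipr2 and Calcrl were low, Vipr2 being the higher in 4 of 6 libraries, and Ptgdr2 was listed at 0 in all 6.

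**Figure D1:**
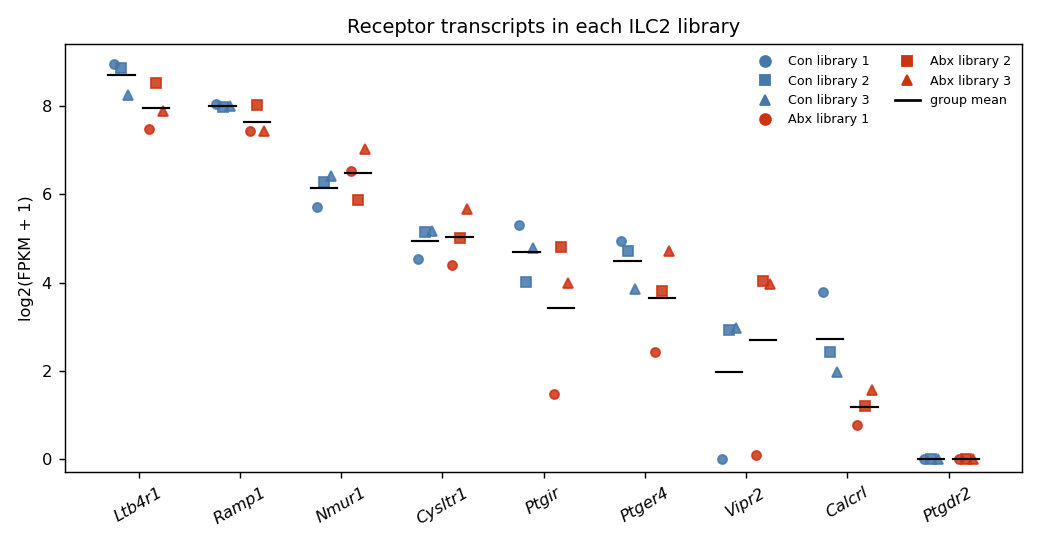
Level of each of the 9 receptor genes as log2(FPKM + 1) in the 3 Con (blue) and 3 Abx (red) libraries, ordered by the mean over 6 libraries, with a black line for each group mean. Ltb4r1 and Ramp1 lie at the top, Ptgdr2 lies at 0 in every library, and the groups are separated only for Calcrl.

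Whether prenatal antibiotics changed any of these receptors was tested in the fit across all genes. The 8 genes other than Ptgdr2 reached 1 FPKM in at least 3 of the 6 libraries and entered that test, which was limma on log2(FPKM + 1) over 8718 genes. With a fold change over 2 and a Benjamini-Hochberg adjusted p under 0.05, 0 of the 8 were higher and 0 lower in Abx, where the share over all genes tested was 0.0459% higher and 0.0115% lower. Without adjustment, 0 of the 8 had a limma p under 0.05 in either direction, where 4.74% of all genes were higher and 6.25% lower. The groups did not overlap in 1 of the 8, which was lower in Abx, against 8.49% higher and 8.73% lower over all genes. By sign alone, 5 of the 8 had a lower mean in Abx, and the median log2 difference was -0.55 beside -0.06 over all genes tested. Without Abx library 1 the median of the 8 was -0.26.

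**Figure D2:**
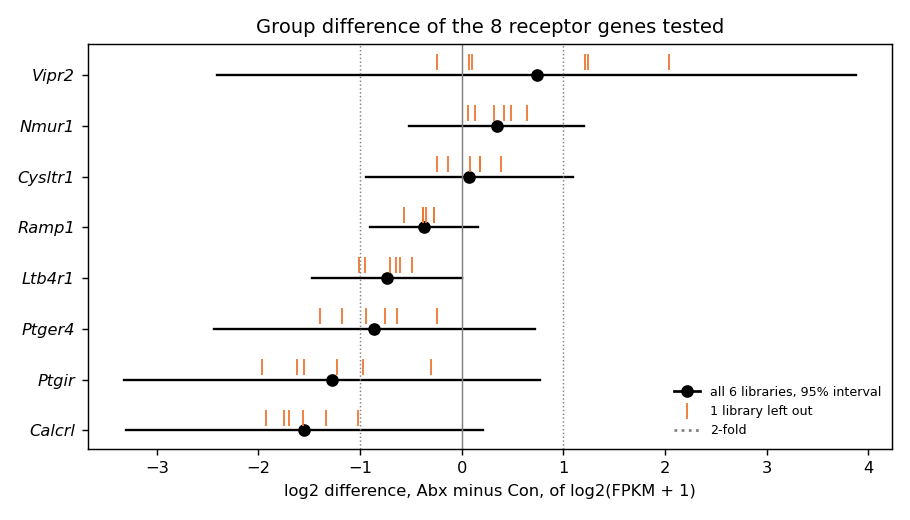
Log2 difference in log2(FPKM + 1), Abx minus Con, of the 8 receptor genes tested, with the 95% interval from limma (black, n = 3 per group) and the differences with each library left out in turn (orange). The interval of each gene includes 0, and that of Ltb4r1 ends at 0.01.

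Nmur1 (ENSMUSG00000026237, chromosome 1 of GRCm38 from 86386303 to 86426228) encodes the neuromedin U receptor. It read 51.5, 76.8 and 84.8 FPKM across Con libraries 1, 2 and 3, against 91.4, 57.9 and 130 FPKM across Abx libraries 1, 2 and 3. Of the Abx libraries, 1 and 3 were above every Con library and library 2 lay within their range. The means were 71.1 ± 17.4 FPKM for Con and 93.2 ± 36.2 FPKM for Abx (SD, n = 3 each), and the log2 difference of 0.34 (95% interval -0.52 to 1.2, limma adjusted p = 0.797) was within the spread between libraries. Vipr2 (ENSMUSG00000011171, chromosome 12 from 116077726 to 116146261) encodes a receptor of vasoactive intestinal peptide. It was listed at 0, 6.57 and 6.91 FPKM across Con, against 0.07, 15.5 and 14.7 FPKM across Abx. In each group library 1 was at or near 0 and the other libraries were close to each other, so the log2 difference of 0.74 had a wide interval, from -2.40 to 3.88 (limma adjusted p = 0.887), and without Con library 1 it turned to -0.25. The spread of Vipr2 within groups was larger than that of 93.6% of the genes tested.

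The receptor of CGRP needs both Calcrl and Ramp1. Calcrl (ENSMUSG00000059588, chromosome 2 from 84330626 to 84425411), which encodes the receptor itself, read 12.8, 4.41 and 2.93 FPKM across Con, against 0.70, 1.32 and 1.98 FPKM across Abx. Each Abx library was below each Con library, and Con library 1 was far above the other Con libraries. Its log2 difference was -1.55 (95% interval -3.30 to 0.21, limma adjusted p = 0.519). The exact two-sided permutation test gave p = 0.1, the smallest that 3 libraries against 3 allow. Any gene with separated groups gets this p, so it adds nothing to the separation. In bulk samples such as these, fewer cells of a type and less RNA per cell cannot be told apart. Endothelium, which the CD45+ gate should remove, is also known for Calcrl. Of its 7 markers, 6 stayed below 1 FPKM in all libraries, with Emcn listed at 0 throughout and Cdh5, Kdr, Cldn5, Tek and Egfl7 at 0.40 FPKM at most. The 7 markers summed to 5.13 to 10.8 FPKM in Con and 6.14 to 21.1 FPKM in Abx, nearly all of it Pecam1. The 8 markers of mast cells and basophils summed to 343 to 455 FPKM in Con and 185 to 295 FPKM in Abx, most of it Cpa3, whose groups overlapped. Of the 3 markers tested 0 were called, and Mcpt8, Kit and Ms4a2 had each Abx library below Con. Cma1 (17.75 FPKM) and Tpsb2 (11.59 FPKM) were above 0 only in Con library 1, the highest library for Calcrl. Mcpt8, Kit and Ms4a2 were instead highest in Con library 2. Fcer1a was above 0 only in Abx library 2 (16.2 FPKM), and Mcpt4 stayed at or under 0.05 FPKM. The part of these cell types in the Calcrl result was not tested.

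Ramp1 (ENSMUSG00000034353, chromosome 1 from 91179822 to 91225196) read 264, 252 and 254 FPKM across Con, against 173, 259.6 and 173 FPKM across Abx. Abx libraries 1 and 3 were lower by nearly the same amount, whereas Abx library 2 was within the Con range. The log2 difference was -0.37 (95% interval -0.90 to 0.16, limma adjusted p = 0.638), with means of 257 ± 6.72 and 202 ± 50.0 FPKM (SD, n = 3 each). Ramp1 exceeded Calcrl in every library, with a ratio of the FPKM values of 20.6, 57.1 and 86.7 in Con and 247, 197 and 87.4 in Abx. Calcrl was thus the scarcer transcript of the pair in all 6 libraries.

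The prostaglandin receptors did not pass the test either. Ptgir (ENSMUSG00000043017, chromosome 7 from 16906490 to 16910905) encodes the receptor of prostacyclin, which couples to cyclic AMP and inhibits ILC2s. It read 38.6, 15.1 and 26.7 FPKM across Con, against 1.80, 27.0 and 14.9 FPKM across Abx. Abx library 1 was far below all others and the remaining Abx libraries were in or next to the Con range, with a log2 difference of -1.27 (95% interval -3.32 to 0.77, limma adjusted p = 0.677) that was -0.30 without that library. Ptger4 (ENSMUSG00000039942, chromosome 15 from 5206661 to 5244187), the EP4 receptor of prostaglandin E2, read 29.7, 25.2 and 13.5 FPKM across Con, against 4.36, 12.95 and 25.1 FPKM across Abx. Again Abx library 1 was the lowest, and the log2 difference of -0.86 (95% interval -2.44 to 0.72, limma adjusted p = 0.715) was -0.25 without it. Ptger4 shares 1097 of its 6648 exon bases with the antisense genes Ttc33 and Gm15937, whose reads cannot be told apart without strand.

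Ptgdr2 (ENSMUSG00000034117, chromosome 19 from 10937160 to 10942511) encodes CRTH2, the prostaglandin D2 receptor that is widely used as a surface marker of ILC2s. Its value was 0 in all 6 libraries, so no difference is given. Ptgdr, which encodes the other prostaglandin D2 receptor, was listed at 0 in all 6 libraries too. A failed estimate cannot be told from absence in these files, and Ptgdr2 shares 1031 of its 2644 exon bases with the antisense gene Ccdc86, which reached 6.78 FPKM.

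Of the leukotriene receptors, Ltb4r1 had the lowest p of the 8 genes and Cysltr1 the highest. Ltb4r1 (ENSMUSG00000046908, chromosome 14 from 55765962 to 55768494) read 497, 469 and 306 FPKM across Con, against 177, 365 and 238 FPKM across Abx. Abx libraries 1 and 3 were below every Con library, while Abx library 2 lay between Con libraries 2 and 3. The means were 424 ± 103 and 259.8 ± 95.7 FPKM (SD, n = 3 each), a log2 difference of -0.74 (95% interval -1.48 to 0.01, unadjusted p = 0.0512 and adjusted p = 0.455 with limma). Neutrophils are also known for this receptor. The neutrophil genes Ly6g, Mpo and Elane were listed at 0 in all 6 libraries and Csf3r in 5 of them. Sums over the 6 markers were 0.47 to 16.2 FPKM in Con and 0 to 75.3 FPKM in Abx, with S100a8 at 75.0 FPKM in Abx library 1. S100a9 went the other way, at 0.24, 2.83 and 8.41 FPKM across Con, against 0.34, 0 and 0 FPKM across Abx. The 6 erythroid markers, whose cells the Ter119 antibody should remove, summed to 6422 to 14820 FPKM in Con and 3166 to 8659 FPKM in Abx, mainly from globins, with 4 of the 6 tested and 0 called. The part of either cell type in the Ltb4r1 result was not tested.

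Cysltr1 (ENSMUSG00000052821, chromosome X from 106574346 to 106603679) encodes the receptor of the cysteinyl leukotrienes C4 and D4. It read 22.2, 34.6 and 35.0 FPKM across Con, against 20.2, 31.2 and 49.8 FPKM across Abx. The groups overlapped widely, with means of 30.6 ± 7.29 and 33.7 ± 15.0 FPKM (SD, n = 3 each) and a log2 difference of 0.07 (95% interval -0.94 to 1.09, limma adjusted p = 0.972). Its sign was lost with quantile normalization and median centring and without Con library 1 or Abx library 3. The gene is X-linked, and Xist separated the groups in the same libraries.

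Library by library, the 8 genes did not move together in Abx. Abx library 1 was below the Con range for 6 of the 8 genes and the lowest of all libraries for 5, with a median of -1.55 relative to the Con mean on the log2 scale. Abx library 2 was below the Con range for 2 genes and above it for 1, with a median of -0.08, and Abx library 3 was below for 4 and above for 3, with a median of -0.18. Over all genes tested the same medians were -0.05, 0.11 and 0.07, so that the low values of Abx library 1 were not shared by the typical gene of that library. Nmur1 was the single gene above the Con range in Abx library 1.

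**Figure D3:**
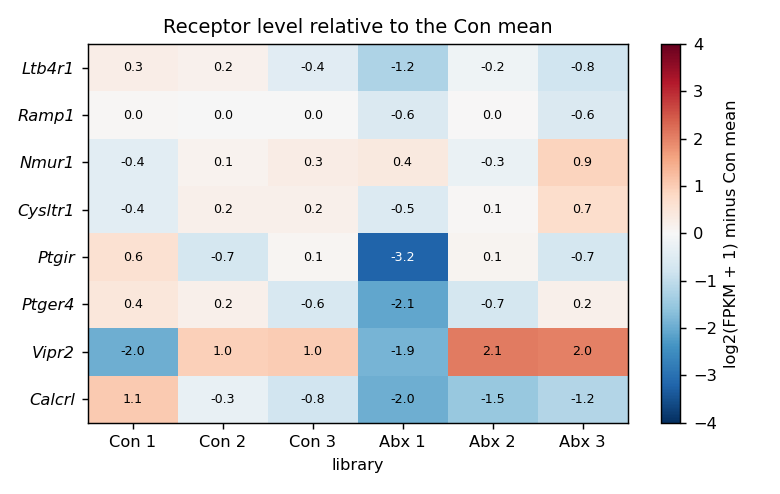
Log2(FPKM + 1) of the 8 tested receptor genes in each library minus the mean of the 3 Con libraries, ordered by level, with red for higher and blue for lower. Abx library 1 is blue for 7 of the 8 genes, with the lowest value at Ptgir, and Vipr2 is low in library 1 of both groups.

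The related receptors and receptor partners were a list of 20 genes, of which 14 stayed below 1 FPKM in all libraries and 4 were tested. Of the 4, 0 passed the thresholds, 0 had an unadjusted p under 0.05 with limma and 4 had a lower mean in Abx (median log2 difference -1.09). Over all 8718 genes, 0.0459% were called higher and 0.0115% lower, 4.74% and 6.25% had such an unadjusted p, and 4621 had a lower mean. Because the list was chosen with earlier results of these data known, its counts are a description only. Cysltr2, the other receptor of cysteinyl leukotrienes, read 29.1, 29.9 and 36.3 FPKM across Con, against 10.9, 17.7 and 0 FPKM across Abx. All 3 Abx libraries were below Con, with a log2 difference of -2.43 (95% interval -4.89 to 0.04, limma adjusted p = 0.456). In Abx library 3 Cysltr1 was at its highest and Cysltr2 was listed at 0. Ramp3, which turns Calcrl into an adrenomedullin receptor, was at 57.0 to 109 FPKM in Con and 24.2 to 88.0 FPKM in Abx (limma adjusted p = 0.707), while Ramp2 stayed at or under 0.03 FPKM. Ptger2, the EP2 receptor, was at 4.27 to 11.8 FPKM in Con and 1.64 to 11.3 FPKM in Abx (limma adjusted p = 0.843). Crcp, a CGRP receptor component that is also a subunit of RNA polymerase III, ranged from 17.4 to 34.9 FPKM in Con and from 0.31 to 39.7 FPKM in Abx, where it had both its lowest and its highest library (limma adjusted p = 0.708). Tbxa2r reached 1 FPKM in only 2 libraries, with 6.55 FPKM in Con library 1 and 11.2 FPKM in Abx library 2. Nmur2, Calcr and Oxgr1 were listed at 0 in every library, as were 3 further genes of the list.

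Genes for the ligands, and for the enzymes that make or remove lipid mediators, formed a list of 26 of which 9 were tested. None of the 9 was called (0.0459% higher and 0.0115% lower over all genes). Without adjustment 4 had a limma p under 0.05, all lower in Abx, where the share over all genes was 6.25% lower and 4.74% higher, and the median log2 difference of the list was -0.03 (-1.04 without Abx library 1 and 0.47 without Abx library 2). The groups did not overlap in these 4 genes, against the 8.73% of all genes given above. The list was chosen with earlier results of these data known, so its counts beside these shares are a description only. Adm, for adrenomedullin, read 82.2, 19.3 and 54.9 FPKM across Con, against 0.26, 0 and 0 FPKM across Abx (log2 difference -5.40, SE 0.77, limma adjusted p = 0.0911). Calca, which encodes CGRP and which ILC2s can make themselves, read 235, 158 and 205 FPKM across Con, against 16.6, 119 and 57.3 FPKM across Abx (log2 difference -1.99, SE 0.64, limma adjusted p = 0.253). Both peptides bind Calcrl complexes, and for both every Abx library was below every Con library. Alox5, the 5-lipoxygenase that starts leukotriene synthesis, read 98.4, 115 and 103 FPKM across Con, against 12.8, 37.7 and 51.0 FPKM across Abx (log2 difference -1.81, SE 0.49, limma adjusted p = 0.177). Ptgs2, the inducible cyclooxygenase, read 42.5, 15.3 and 59.0 FPKM across Con, against 1.05, 11.8 and 0.71 FPKM across Abx (log2 difference -3.30, SE 0.94, limma adjusted p = 0.190). Lta4h, which makes leukotriene B4, had overlapping groups, with 22.4 to 58.7 FPKM in Con and 47.3 to 58.0 FPKM in Abx (log2 difference 0.51, limma adjusted p = 0.714). The neuropeptides Nmu, Nms, Vip and Adcyap1 were listed at 0 in all 6 libraries.

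The genes that carry the signal inside the cell were a list of 37 G proteins, adenylate cyclases, kinases, phosphodiesterases and regulators, of which 25 were tested. Of these 0 were called (0.0459% higher and 0.0115% lower over all genes), and 20 had a lower mean in Abx and 5 a higher one, beside 4621 lower and 4097 higher of all 8718 (median log2 difference -0.51). Without adjustment 3 had a limma p under 0.05 on the lower side and 1 on the higher side, against 6.25% and 4.74% of all genes. The groups did not overlap in 8 lower and 2 higher genes, against 8.73% and 8.49% of all genes. Earlier results of these data were known when this list was chosen too, so these counts are a description only. Crem, a transcription factor induced by cyclic AMP, read 184, 169.6 and 171 FPKM across Con, against 75.3, 65.1 and 31.8 FPKM across Abx (log2 difference -1.68, SE 0.35, limma adjusted p = 0.0967). The Con libraries were nearly level for Crem and all Abx libraries were below them. Rgs2, which shuts off Gq proteins, read 29.1, 45.8 and 4.61 FPKM across Con, against 0, 0.53 and 0.80 FPKM across Abx (log2 difference -3.83, SE 0.96, limma adjusted p = 0.141). Prkar1a, a regulatory subunit of protein kinase A, read 176, 236 and 212 FPKM across Con, against 170.1, 126 and 116 FPKM across Abx (log2 difference -0.60, limma adjusted p = 0.405). In the opposite direction, Gnai3, an inhibitory G protein subunit, read 67.1, 60.9 and 40.7 FPKM across Con, against 154, 89.4 and 96.7 FPKM across Abx (log2 difference 0.99, limma adjusted p = 0.276). Gnai2, another inhibitory subunit, was at 158 to 173 FPKM in Con and 122 to 152 FPKM in Abx, without overlap (log2 difference -0.26, limma adjusted p = 0.716). Rgs1 was at 149 to 296 FPKM in Con and 108 to 146 FPKM in Abx (log2 difference -0.61, limma adjusted p = 0.541).

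**Figure D4:**
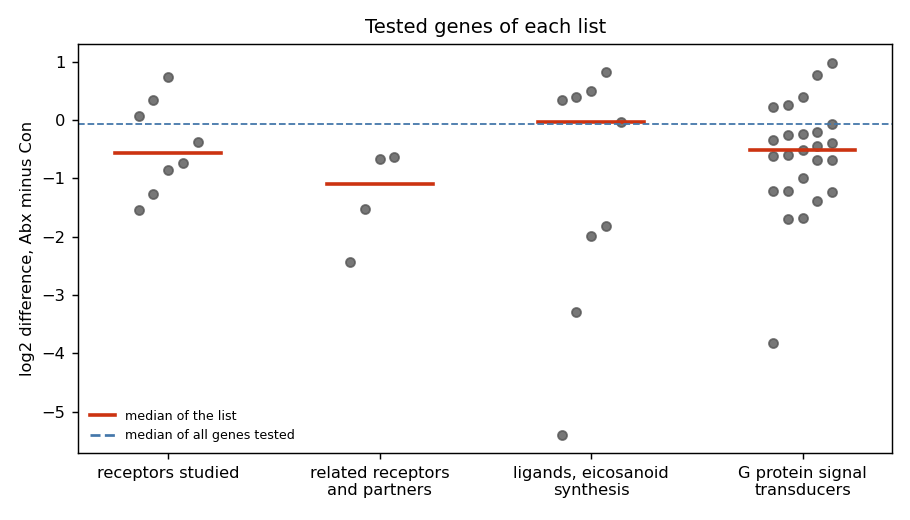
Log2 difference, Abx minus Con, of each tested gene in the 4 lists (8, 4, 9 and 25 genes), with a red line for the median of each list and a dashed blue line for the median of all 8718 genes (-0.06). The receptors lie between -1.55 and 0.74, and Adm is the lowest point at -5.40.

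**Figure D5:**
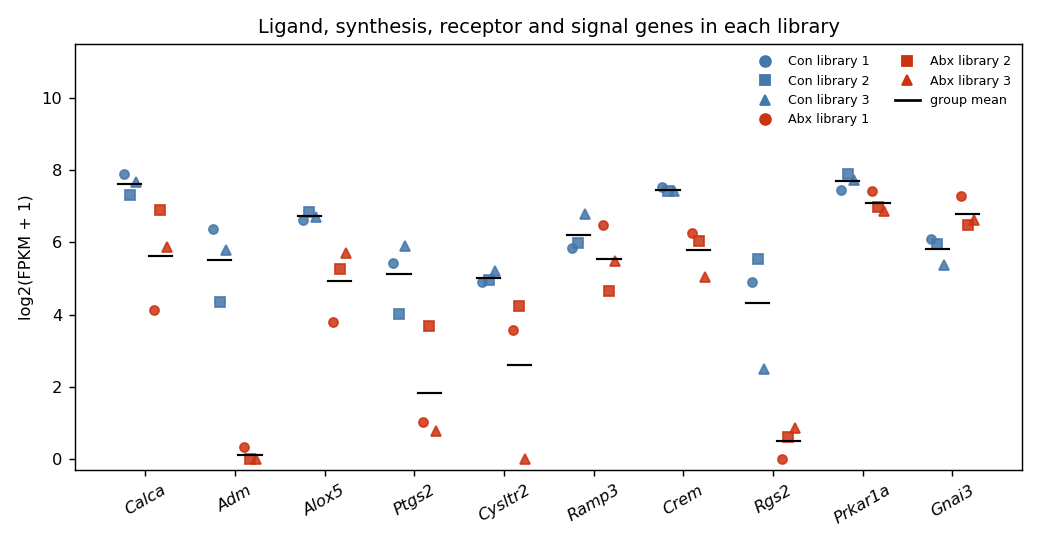
Log2(FPKM + 1) by library of the 8 listed genes with an unadjusted p under 0.05 (Calca, Adm, Alox5, Ptgs2, Crem, Rgs2, Prkar1a and Gnai3) and of the receptor genes Cysltr2 and Ramp3, in Con (blue) and Abx (red), with a black line for each group mean. The groups are separated for all of them but Ramp3, with Gnai3 higher and the others lower in Abx.

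For the receptor genes of highest level, the tested genes with the most similar pattern over the 6 libraries were sought by Pearson's r of log2(FPKM + 1), as a description. For Ltb4r1 they were Baz2b (r = 0.98), the globin gene Hbb-bs (r = 0.98) and Taok3 (r = 0.97), and 108 genes had an r over 0.9. Hbb-bs read 6292, 4216 and 2799 FPKM across Con, against 1312, 3825 and 2255 FPKM across Abx, in the same order of libraries as Ltb4r1. For Ramp1 they were Gstp3, Gm20324 and Zfp788, each with an r over 0.9, as 272 genes had. Gstp3 read 74.3, 63.3 and 50.9 FPKM across Con, against 0.10, 74.4 and 0 FPKM across Abx, so that it shared with Ramp1 the low values of Abx libraries 1 and 3. The points of each correlation are the same 6 libraries in 2 groups, which all genes share.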

How the data were processed

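The deposited values are FPKM per gene, 1 library per file. According to the methods, the authors trimmed reads with Cutadapt, mapped them with HISAT2, assembled them with StringTie and tested with DESeq2. The submitters' processing notes name Bowtie 0.12.2 and the builds mm8 and mm9, and the methods a human Ensembl annotation, but 55134 of the 55394 identifiers are in GENCODE M21 (GRCm38), from which positions were taken. Promoters came from RefSeq (GRCm38.p6).

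Whole reads could not be read back from low values (26.1% to 30.0% within 0.1 of a multiple of the best step, 20% by chance), so no count test such as DESeq2 was run. The test took genes reaching 1 FPKM in 3 or more of the 6 libraries, on log2(FPKM + 1), where fold changes of low genes are understated, with limma 3.58.1 in R 4.3.3 (eBayes with trend, two-sided, Benjamini-Hochberg). Genes were called at a fold change over 2 and adjusted p under 0.05. The method was tested on simulated data with normal noise of the same SD (0.85) for every gene. These did not imitate the unequal spread of the genes or the values of 0 in the libraries. The 9 genes and all lists were chosen with earlier results of these data known, and 1 gene of the related receptors is not reported here. Named genes were the 9, listed genes called or with unadjusted p under 0.05, the 3 highest of each list, related receptors with a mean of 1 FPKM or more, the 3 genes most like each of the 2 highest receptors, and Xist and Eif2s3y. Of marker lists, genes that bear on a receptor were named, and Polr2h, Cd79b and Zap70 were named after their values were seen. Tables were made in Python 3.11.15 (pandas 2.3.3). The alternatives were pseudocounts, scaling, filters, robust variance, replicate block, libraries left out, call limits, detection limits and summed entries.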

Additional observations from a re-analysis of the deposited data

How the results depend on the processing

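Of the 8 tested receptors and 15 tested genes of the 3 pathway lists named above, 0 were called under any alternative that kept the adjusted p. Of 323 recomputed differences 318 kept their direction, but many of them could not change. Robust variance, the replicate block, the filters and summed entries leave a difference as it was. Only pseudocounts, scaling and left-out libraries could alter a direction. Calcrl was below the stricter filter and gave no value there. The exceptions were Cysltr1, at -0.052 with median centring, -0.071 with quantile normalization, -0.25 without Abx library 3 and -0.13 without Con library 1, and Vipr2, at -0.25 without Con library 1. With 1 library left out in turn, Cysltr1 ranged from -0.25 to 0.38 and Vipr2 from -0.25 to 2.04. The adjusted p of the receptors was lowest for Ltb4r1, at 0.155, and its difference ranged from -1.01 to -0.49. Median centring moved the median of all genes from -0.06 to -0.19.

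Over all genes, 4 were called higher and 1 lower, and 0 in either direction with pseudocounts of 0.1 or 0.01, median centring, no filter or the replicate block. There were 2 lower with quantile normalization or the stricter filter, and 315 higher and 499 lower with the unadjusted p, which also gave 4 lower genes in the list of ligands and enzymes and 2 lower transducers. With 1 library left out, between 0 and 2 were called higher and between 0 and 2 lower. Same-numbered libraries did not deviate together (r of -0.02, -0.03 and 0.01), and pairs with different numbers had r of -0.03 to 0.05. Whether same-numbered libraries shared a litter or a batch cannot be told from these r, and no pairing is stated.

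Detection at 0.1 or 5 FPKM gave 7 and 6 of the 9 receptors in Con and 7 and 4 in Abx. Read depth is unknown, and the intervals of all tested receptors other than Ramp1 reach past a 2-fold change.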

Other observations

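Among the signal transducers, further genes had groups that did not overlap, chosen here after their values were seen. Rap1a, a small GTPase downstream of cyclic AMP, was at 28.9 to 39.6 FPKM in Con and 4.64 to 27.4 FPKM in Abx (log2 difference -1.39, limma adjusted p = 0.472). Gnb1, a G protein beta subunit, was at 74.6 to 88.6 FPKM in Con and 57.1 to 73.2 FPKM in Abx (log2 difference -0.35, limma adjusted p = 0.695), and Pde4b, which degrades cyclic AMP, at 19.0 to 20.9 and 12.8 to 16.2 FPKM (log2 difference -0.44, limma adjusted p = 0.761). Atf1, a factor that binds the cyclic AMP response element, was at 5.59 to 10.4 FPKM in Con and 10.6 to 25.6 FPKM in Abx (log2 difference 0.78, limma adjusted p = 0.706). Adcy3, an adenylate cyclase under the filter on low values, was at 0.36 to 2.29 FPKM in Con and 0 to 0.20 FPKM in Abx. Gnas, the stimulatory subunit to which Calcrl, Ptgir and Ptger4 couple, had overlapping groups, with 55.6 to 64.5 FPKM in Con and 46.1 to 66.7 FPKM in Abx.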
